A study of Mus musculus with 3 samples.

Results

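Effector cytokine genes of CD4 T cells were followed across 3 culture media. The set was fixed by gene symbol as 10 genes of 23282 rows, namely Ifng, Il2, Il3, Il21, Il10, Il17a, Csf2, Tnf, Lta and Tgfb1, and all 10 had a row. CD4 T cells of C57BL/6 mice (C57BL/6J in the study's methods), selected from spleen and lymph nodes by CD4 microbeads or a cell sorter, were stimulated in every medium with antibodies to CD3 and CD28 (2 µg/ml of each) and cultured for 72 h. Complete medium (CM) was RPMI with 10% serum, dialyzed medium (DM) was RPMI lacking amino acids with 10% dialyzed serum, and DM+Met was DM with 30 µM methionine added. DM therefore differs from CM both in amino acids and in the small molecules that dialysis removes. The study reports that DM itself still contained some methionine, so DM+Met raised a level that was already present. Mice were females of 6 to 8 weeks, the age stated for the animals in general, and the labels name no transgene or deletion. Each medium had 2 libraries.

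Activated CD4 T cells act on other cells largely through secreted cytokines, and the genes studied here cover the main kinds. Interferon gamma (Ifng) is the defining product of Th1 cells and arms macrophages, interleukin 17A (Il17a) is that of Th17 cells and recruits neutrophils, and interleukin 21 (Il21) is made by follicular helper and Th17 cells and helps B cells. Interleukin 2 (Il2) is an early growth factor of T cells that signals through STAT5, while interleukin 3 (Il3) and GM-CSF (Csf2) act on myeloid cells through receptors with a shared beta chain. Tumour necrosis factor (Tnf) and lymphotoxin alpha (Lta) are related inflammatory ligands that share receptors. Interleukin 10 (Il10) and transforming growth factor beta 1 (Tgfb1) restrain immune responses, and the TGF-β protein is secreted in a latent form that must be activated. Many of these genes are switched on by NFAT, AP-1 and NF-κB downstream of the T cell receptor.

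The upstream sequences of 5 of the genes whose levels differed between DM and CM are shown first, 2 that were higher in DM (Tnf and Lta) and 3 that were lower (Ifng, Il21 and Il17a), since these genes moved in opposite directions. Each run is the 250 bases before the annotated start, written 5′ to 3′ on the strand of the gene, from RefSeq on build GRCm38.p6, the assembly that mm10 names. Capitals mark the letters GGAAA (the core bound by NFAT and some other factors), TGANTCA and TATAAA (the TATA box). TGANTCA is a loose form of the AP-1 site that allows any middle base, where the usual site has C or G. Both strands were searched, so that GGAAA on the other strand appears as TTTCC. None of the capital runs overlapped another.
Tnf, chr17:35202008-35202257, minus strand: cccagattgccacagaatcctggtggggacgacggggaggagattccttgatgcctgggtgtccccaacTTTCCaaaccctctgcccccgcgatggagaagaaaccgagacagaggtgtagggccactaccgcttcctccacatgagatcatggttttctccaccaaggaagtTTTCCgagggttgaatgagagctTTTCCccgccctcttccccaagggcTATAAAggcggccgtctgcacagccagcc
Lta, chr17:35205352-35205601, minus strand: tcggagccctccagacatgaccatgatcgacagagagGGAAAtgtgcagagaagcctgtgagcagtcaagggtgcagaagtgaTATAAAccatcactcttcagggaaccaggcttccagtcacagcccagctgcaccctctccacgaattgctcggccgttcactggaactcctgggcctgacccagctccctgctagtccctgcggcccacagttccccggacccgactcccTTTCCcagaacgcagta
Ifng, chr10:118440796-118441045, plus strand: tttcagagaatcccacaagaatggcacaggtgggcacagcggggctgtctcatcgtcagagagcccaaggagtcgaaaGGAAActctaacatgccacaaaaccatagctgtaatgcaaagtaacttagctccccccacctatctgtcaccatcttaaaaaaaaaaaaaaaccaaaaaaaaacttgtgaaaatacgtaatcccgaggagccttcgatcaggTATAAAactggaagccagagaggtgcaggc
Il21, chr3:37232637-37232886, minus strand: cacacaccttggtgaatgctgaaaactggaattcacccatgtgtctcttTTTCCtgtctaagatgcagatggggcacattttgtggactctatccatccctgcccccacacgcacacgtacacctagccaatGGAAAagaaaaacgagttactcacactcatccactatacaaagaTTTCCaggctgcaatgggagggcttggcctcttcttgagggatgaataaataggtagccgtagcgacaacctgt
Il17a, chr1:20730655-20730904, plus strand: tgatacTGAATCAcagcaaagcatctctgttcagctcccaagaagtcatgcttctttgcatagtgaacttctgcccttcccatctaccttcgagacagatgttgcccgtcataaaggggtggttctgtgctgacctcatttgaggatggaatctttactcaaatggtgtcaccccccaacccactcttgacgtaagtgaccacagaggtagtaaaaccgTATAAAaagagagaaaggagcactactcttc

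The Tnf window held the GGAAA core at 3 places, 181, 77 and 54 bases before the start, and a TATA box at 29 bases. The Lta window held the core at 213 and 17 bases, and its TATAAA lay at 167 bases before the start that the table gives. That window overlaps the annotated body of Lta, so another start of the gene lies inside it. The Il21 window also held the core at 3 places (201, 118 and 74 bases) and no TATAAA. In the Ifng window the core occurred at 172 bases and the TATA box at 30 bases. The Il17a window had no GGAAA, an AP-1 site at 244 bases and a TATA box at 31 bases. Over the 9 genes with a sequence in the table, GGAAA was found in 7, TATAAA in 5 and TGANTCA in 1, against 55.6%, 12.4% and 6.75% of 32851 mouse promoter windows of the same length. GGAAA and TATAAA thus occurred in genes that were higher and in genes that were lower in DM, and a match describes the sequence only. Il10 had no entry.

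Several of the genes are chromosomal neighbours. On GRCm38.p6, Tnf (chr17:35199367-35202007) and Lta (chr17:35203165-35205578) are both on the minus strand, 1157 bases apart. Il3 (chr11:54265085-54267279) and Csf2 (chr11:54247270-54249899), both on the minus strand, lie 15185 bases apart. Il2 (chr3:37120713-37125954) and Il21 (chr3:37222759-37232636), also on the minus strand, are separated by 96804 bases. On the plus strand are Ifng (chr10:118441046-118445894), Il10 (chr1:131019845-131024970), Il17a (chr1:20730905-20734496) and Tgfb1 (chr7:25687002-25705077). The treatment of strand in the counting is not given in the sources used here. Reads of Il2, Il21 and Csf2 therefore cannot be told from those of the opposite-strand genes that overlap them (Adad1, Gm12534 and Gm12223), and Ifng and Lta overlap the same-strand entries Gm49751 and Mir6974.

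Libraries were made from transcript 3′ ends, so reads per gene are not expected to scale with transcript length. Levels of different genes are set side by side on that basis, and other differences between genes in capture or mapping were not checked. Levels are given as CPM (reads of a gene scaled to a common library size by TMM, which corrects for differing composition of the libraries), as log2(CPM + 1), or as the reads recovered from the deposited values. Depth was 8504739 to 12377305 reads per library, and a count of 0 still allowed 3 reads, or 0.251 to 0.384 CPM. The ribosomal RNA precursor Rn45s took 31.0% to 32.9% of reads in CM, 37.2% to 38.3% in DM and 15.5% to 20.1% in DM+Met. The summed CPM of 10 T cell markers, which include Cd3e and Cd4, was 1950 to 2064 in CM, 1833 to 2381 in DM and 1988 to 2033 in DM+Met. Intervals and limits on reads cover counting error only. In bulk RNA, fewer cells that express a gene and less RNA of it per cell cannot be told apart.

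**Figure D1:**
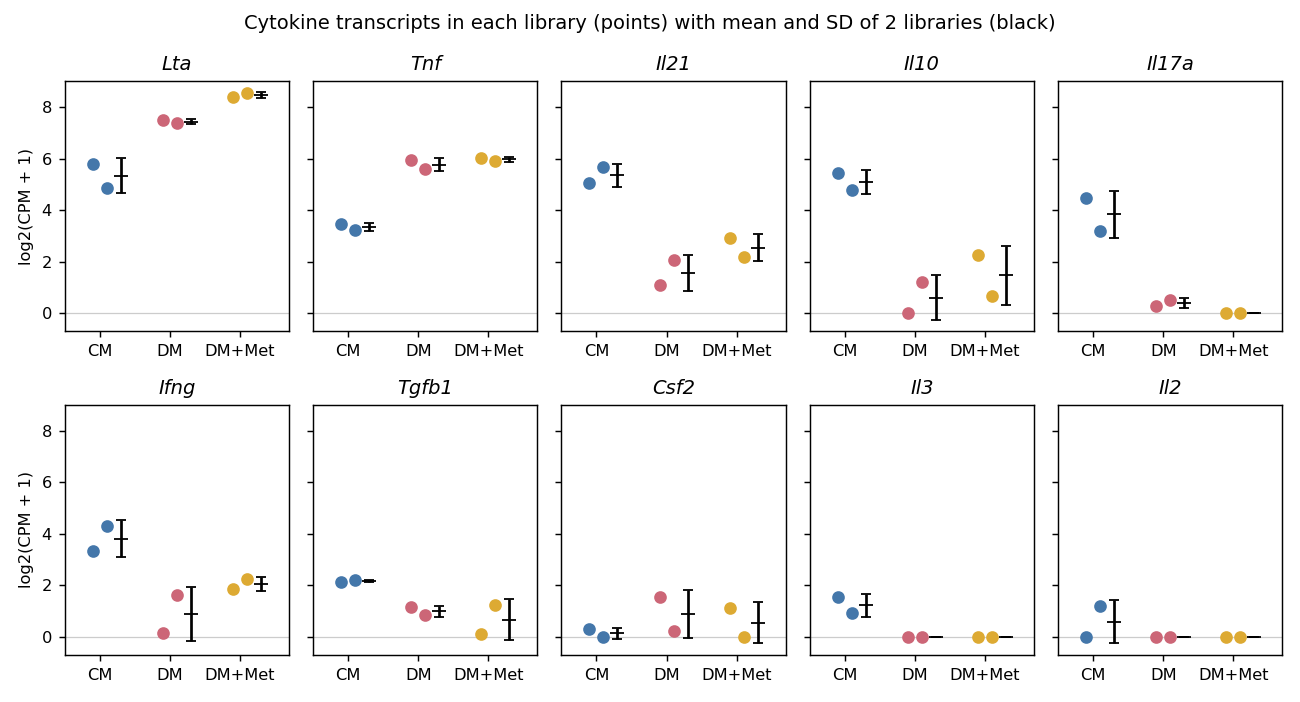
Level of each of the 10 cytokine genes, as log2(CPM + 1) on the vertical axis, in the 2 libraries of CM, DM and DM+Met (coloured points), with the mean and SD of the 2 libraries in black. Lta and Tnf sit higher in DM and DM+Met than in CM, whereas Il21, Il10, Il17a and Ifng sit lower.

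The cytokine profile of CM was mixed, and that of both dialyzed media was made up almost wholly of Lta and Tnf. In CM, Il21 (log2 level 5.37 ± 0.45; SD, n = 2), Lta (5.33 ± 0.68) and Il10 (5.10 ± 0.47) were the most abundant, and their libraries overlapped. Il17a (3.84 ± 0.90), Ifng (3.82 ± 0.71) and Tnf (3.35 ± 0.16) formed a second, overlapping tier below them. Tgfb1 (2.17 ± 0.038) followed without overlap, and Il3, Il2 and Csf2 came last with at most 17 reads in a library. In DM the order began with Lta (7.44 ± 0.087) and Tnf (5.77 ± 0.25), which did not overlap each other or any other gene of the set. Next came Il21, which reached 1.57 ± 0.69 and overlapped Tgfb1, which in turn overlapped Csf2. DM+Met began in the same way, with Lta at 8.47 ± 0.10, Tnf at 5.97 ± 0.083 and Il21 at 2.55 ± 0.52.

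Counted as reads, Lta and Tnf together made up 37.1% (95% Wilson interval 34.7% to 39.6%) of the 1541 reads of the 10 genes in CM library 1. In CM library 2 they made up 24.9% (22.5% to 27.5%) of 1139 such reads. The share was 98.1% (97.5% to 98.6%) and 96.4% (95.5% to 97.0%) in the DM libraries and 96.5% (96.0% to 97.0%) and 97.9% (97.5% to 98.3%) in the DM+Met libraries. The other 8 genes summed to 110.3 and 109.5 CPM in CM, 4.59 and 8.04 CPM in DM, and 14.3 and 9.24 CPM once methionine was added. The 2 dialyzed media overlapped neither with CM in this sum nor in the share. All 10 genes together summed to 175 and 146 CPM in CM, 245 and 221 CPM in DM, and 415 and 440 CPM in DM+Met.

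**Figure D2:**
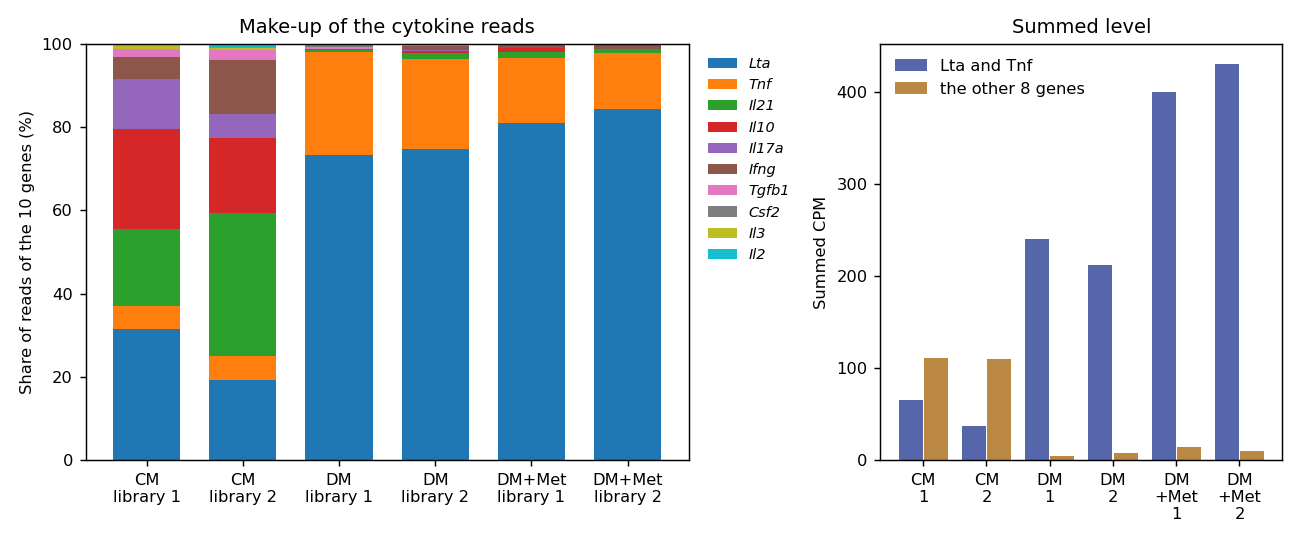
Left, share of the reads of the 10 cytokine genes (vertical axis, percent) that each gene took in each library. Right, summed CPM of Lta and Tnf against that of the other 8 genes in each library, where the other 8 sum to 110.3 and 109.5 in CM and to no more than 14.3 in a dialyzed library.

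The first comparison, DM against CM, asks what loss of amino acids and other small molecules changes in these genes. Of the 10 genes, 8 passed the filter on low values and were tested, and Il2 and Il3 were not. Of the 8 genes, 6 differed (limma, adjusted p below 0.05), with Tnf and Lta higher and Il21, Il10, Il17a and Ifng lower in DM. Of these, Il17a had passed the filter through the CM libraries alone, which left a fall as the only direction open to it. Across all 12770 rows tested 16.9% differed, 7.8% being higher and 9.07% lower in DM. The median log2 fold change over the 8 genes was −2.05, against 0.066 over all rows tested.

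For Tnf, the CM libraries held 88 and 66 reads, the DM libraries 595 and 538 and the DM+Met libraries 767 and 704. Both DM libraries lay far above both CM libraries. In CPM, the DM libraries (60.7 and 47.5) and the DM+Met libraries (64.3 and 59.1) overlapped. Tnf rose in DM by a log2 fold change of 2.42 (SE 0.28; adjusted p = 7.46e-04), and by pooled reads it was 5.78-fold higher (95% counting interval 4.88 to 6.88). Its adjusted p stayed below the threshold under all 15 alternatives tried.

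Reads of Lta numbered 484 and 218 with CM, 1763 and 1869 with DM and 4013 and 4427 with DM+Met. The media did not overlap, and in CPM Lta stood at 336 and 372 in DM+Met, 180 and 165 in DM and 55.1 and 27.9 in CM. In DM, Lta rose by 2.10 in log2 units (SE 0.27; adjusted p = 0.00138), and by pooled reads it was 4.06-fold higher (3.75 to 4.41). The call was lost when DM library 1 (2.04, adjusted p = 0.0692) or DM library 2 (2.17, adjusted p = 0.0592) was left out, while the size of the change hardly moved. There were 5.50 and 3.30 reads of Lta for each read of Tnf with CM, 2.96 and 3.47 with DM, and 5.23 and 6.29 with DM+Met.

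Tnf is also made by macrophages and other myeloid cells, and the summed level of their markers was also higher in DM. The summed CPM of 11 myeloid markers was 42.9 to 45.8 in CM, 122 to 168 in DM and 162 to 168 in DM+Met. Of the 11, 2 rose in DM and none fell (18.2%, near the 16.9% of all rows), with a list median of 0.52 on the log2 scale. Mmp12, a macrophage elastase, rose by 4.98 (adjusted p = 0.00258), from 63 and 0 reads with CM to 1070 and 828 with DM, and Lyz2, the lysozyme of macrophages and granulocytes, rose by 2.13 (adjusted p = 0.0355). Reads of the macrophage marker Adgre1 were 6 and 0 (CM) against 0 and 28 (DM). Mmp12 lost its call without DM library 1 (4.70, adjusted p = 0.111) or DM library 2 (5.27, adjusted p = 0.0860). Lyz2 lost its call without CM library 1 (1.57, adjusted p = 0.139) and without any 1 of the DM and DM+Met libraries. Mmp12 carried most of the sum, which without it was 38.6 to 42.9 in CM, 48.6 to 59.2 in DM and 57.9 to 73.6 in DM+Met. Tyrobp, a signalling adaptor of myeloid and NK cells, had the opposite sign, with 115 and 99 reads with CM against 0 and 63 with DM (−2.44, adjusted p = 0.0620). CD4 cells had been selected before culture, and the part of any remaining myeloid cells in the Tnf result was not tested.

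The CM cultures gave 282 and 393 reads of Il21, those in DM gave 11 and 36, and those in DM+Met 78 and 42. Every dialyzed library was below both CM libraries. In DM, Il21 fell by 3.79 in log2 units (SE 0.56; adjusted p = 0.00237) and was 18.3-fold lower by pooled reads (13.6 to 25.1). It kept its call under all 15 alternatives, the highest adjusted p being 0.04997 without DM library 1.

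For Il10, the CM libraries held 372 and 205 reads, the DM libraries 0 and 15 and the DM+Met libraries 46 and 7. The CM libraries lay above all others, and DM library 1, with 0 of 10452457 reads (which allows up to 0.306 CPM), was the lowest. In DM, Il10 fell by 4.49 in log2 units (SE 0.71; adjusted p = 0.00328), with a pooled ratio of 49.0-fold lower (29.5 to 88.1). Without DM library 1 the change was −3.89 (adjusted p = 0.0734), and without CM library 1 it was −4.16 (adjusted p = 0.0596).

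CM gave 187 and 64 reads of Il17a, DM gave 2 and 5, and neither DM+Met library gave any. Those levels in DM lay at or near the limit of 3 reads, so the size of the fall is poorly fixed. Only the CM libraries reached the filter level, so Il17a could be tested only as lower in the dialyzed media. In DM, Il17a fell by 3.44 in log2 units (SE 0.62; adjusted p = 0.00584), and the pooled reads gave a ratio of 45.7-fold lower (21.8 to 115). The call was lost without CM library 1 (−2.80, adjusted p = 0.0544), DM library 1 (−3.31, adjusted p = 0.0645) or DM library 2 (−3.57, adjusted p = 0.0539), and with limma-voom (−5.26, adjusted p = 0.0652).

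Reads of Ifng numbered 79 and 148 with CM, 1 and 24 with DM and 32 and 45 with DM+Met. The media were separate, but the DM libraries were far apart. In DM, Ifng fell by 2.93 in log2 units (SE 0.67; adjusted p = 0.0176), with a pooled ratio of 11.6-fold lower (7.64 to 18.3). This was the least firm of the 6 calls and was lost in 9 of 14 alternatives, with adjusted p-values of up to 0.111. Without DM library 1 the change was −2.18 (adjusted p = 0.111), without CM library 1 it was −3.43 (adjusted p = 0.0641) and without CM library 2 it was −2.43 (adjusted p = 0.110). Leaving out DM+Met library 1 or 2, which changes only the shared spread, gave adjusted p-values of 0.0735 and 0.0740.

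CD8 T cells and NK cells also make Ifng, and the summed level of their markers was also lower in DM. The summed CPM of 8 such markers was 120 to 129 in CM, 36.1 to 46.7 in DM and 52.8 to 62.6 in DM+Met. Of the 6 markers tested, 2 fell in DM and none rose (33.3%, against 16.9% of all rows), with a list median of −0.52. Nkg7, a component of cytotoxic granules that Th1 cells also express, fell by 3.48 (adjusted p = 9.22e-04), from 401 and 406 reads with CM to 40 and 33 with DM. Cd8a, a chain of the CD8 co-receptor, fell by 1.72 (adjusted p = 0.0323) from 301 and 320 reads in CM to 142 and 89 in DM. The Cd8a call was lost in 10 of 15 alternatives, including each that left out 1 library, with adjusted p-values of up to 0.190. The NK cell marker Ncr1 had at most 1 read in a CM or DM library, and Prf1, which encodes perforin, at most 2. Among the other markers, the CD8 chain gene Cd8b1 (−0.82, adjusted p = 0.225) and the NK cell gene Klrd1 (−0.22, adjusted p = 0.830) were also lower. The NK cell genes Klrb1c and Klrk1 had the opposite sign. Klrb1c had no read with CM against 17 and 22 with DM (adjusted p = 0.0863) and rose in DM+Met against CM by 2.10 (adjusted p = 0.0294), and Klrk1 had 12 and 0 reads with CM against 32 and 27 with DM (1.30, adjusted p = 0.184). Without Nkg7 the sum was 74.8 to 77.2 in CM, 33.2 to 42.6 in DM and 40.1 to 40.2 in DM+Met. CD4 cells had been selected before culture, and the part of any remaining CD8 T and NK cells in the Ifng result was not tested.

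Tgfb1 and Csf2 were tested and did not pass. The CM cultures gave 30 and 28 reads of Tgfb1, those in DM gave 12 and 9, and those in DM+Met 1 and 16. Both CM libraries lay above the others, with a log2 fold change in DM of −1.17 (95% interval −2.51 to 0.17; adjusted p = 0.209). For Csf2, the CM libraries held 2 and 0 reads, the DM libraries 19 and 2 and the DM+Met libraries 14 and 0. Single libraries carried most of its reads, and the difference between DM and CM was 0.75 (−0.71 to 2.21; adjusted p = 0.471).

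Il2 and Il3 had few reads in CM and none in either dialyzed medium after 72 h. Il2 had 0 and 10 reads in CM and none in the other 4 libraries, and the media overlapped. Il3 had 17 and 7 reads in CM and none in the other 4 libraries. With 3 reads set in place of none over the pair of libraries, it was 10.2-fold lower in DM, a value that leaves out counting error in CM. With no filter on low values, the change of Il3 was −1.24 (adjusted p = 0.0545) and that of Il2 −0.60 (adjusted p = 0.393), on a scale on which low genes are compressed.

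The second comparison, DM+Met against DM, asks which of these genes moved when methionine alone was added. None of the 8 tested genes passed the threshold in limma. Of all rows tested 0.0548% did, 0.0392% being higher and 0.0157% lower, so calls in either direction were few in the whole table. At an unadjusted p below 0.05 there were 1238 rows, among them 1 of the cytokine genes, Lta. The median log2 fold change over the 8 genes was 0.53, against 0.009 over all rows.

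Lta was higher in DM+Met by 1.03 in log2 units (95% interval 0.43 to 1.64; adjusted p = 0.288). Its limma p of 0.00356 before adjustment over all rows was the lowest of the 8 genes. Both DM+Met libraries lay above both DM libraries, and pooled reads gave a ratio of 2.06-fold higher (1.98 to 2.14), an interval for counting error alone. Over 15 alternatives its adjusted p lay between 0.0494 and 1, and the threshold was passed with limma-voom only (1.04, adjusted p = 0.0494). The difference was therefore away from the CM level, which was the lowest of the 3 media.

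Tnf differed by 0.20 (−0.42 to 0.81; adjusted p = 0.888) between DM+Met and DM. Ifng and Il21 each had both DM+Met libraries above both DM libraries, toward the CM level. The differences were 1.18 (−0.33 to 2.68) for Ifng and 0.97 (−0.27 to 2.21) for Il21, with an adjusted p of 0.628 for each. Il17a was separate in the other direction, away from the CM level, with no read in DM+Met against 2 and 5 in DM. How many of all rows separate in this way was not counted. The Ifng value rests largely on DM library 1, since it was 0.43 without it and 1.93 without DM library 2. Il21 differed by 0.48 without DM library 1 and by 1.46 without DM library 2. Il10 overlapped between the media and differed by 0.86 (−0.72 to 2.45; adjusted p = 0.767), a value that came to 0.26 without DM library 1 and to 0.06 when DM+Met library 1 was left out. Il17a (−0.40, adjusted p = 0.899), Csf2 (−0.34, adjusted p = 0.928) and Tgfb1 (−0.33, adjusted p = 0.923) were lower by less than their standard errors of 0.62, 0.65 and 0.60. These intervals leave room for changes of several fold in the genes with few reads.

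**Figure D3:**
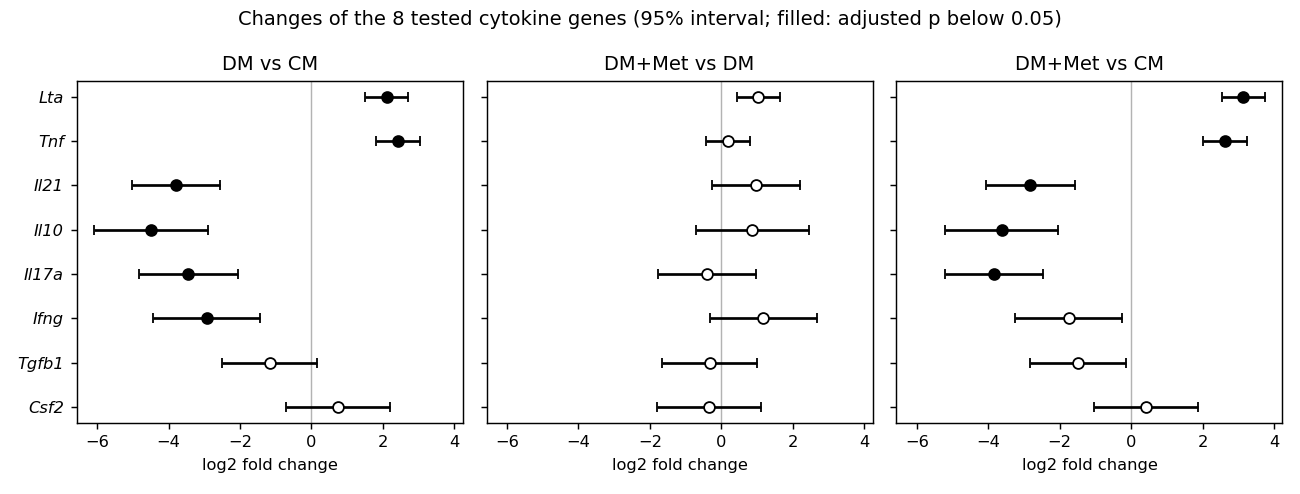
Log2 fold change (horizontal axis) of the 8 tested cytokine genes in the 3 comparisons, with 95% intervals from limma and filled points where the adjusted p is below 0.05. In DM+Met against DM no point is filled, and the interval of Lta alone stays clear of 0.

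Against CM, cells in DM+Met had higher Tnf and Lta and lower Il21, Il10 and Il17a. DM+Met and DM share the CM libraries in these comparisons, so the values below are not separate evidence. Of the 8 tested genes, 5 differed between DM+Met and CM, 2 higher and 3 lower, where 15.3% of all rows did, 6.92% being higher and 8.36% lower. Tnf rose by 2.62 (SE 0.28; adjusted p = 3.52e-04) and Lta by 3.14 (SE 0.27; adjusted p = 1.49e-04), with pooled ratios of 6.64-fold and 8.36-fold higher. Both calls stood under all 15 alternatives.

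Il21 fell by 2.82 (SE 0.56; adjusted p = 0.00860) and was 8.09-fold lower by pooled reads. Its call was lost without either CM library or either DM+Met library, with changes between −2.45 and −3.19 and adjusted p-values of up to 0.152. Il10 fell by 3.63 (SE 0.71; adjusted p = 0.00833) and was 15.7-fold lower by pooled reads. The Il10 call was lost on leaving out any library other than DM library 1, with changes between −2.82 and −4.44 and adjusted p-values of up to 0.151, and also with a pseudocount of 0.1 (−4.34, adjusted p = 0.0852). Il17a had no read in DM+Met and passed the filter through the CM libraries alone. With 3 reads set in place of none over the pair, it was 120-fold lower, a value that leaves out counting error in CM. In limma it fell by 3.84 (SE 0.62, adjusted p = 0.00311). That call was lost without either DM+Met library, at adjusted p-values of 0.0773 and 0.0794.

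Ifng did not pass in DM+Met against CM (−1.75, 95% interval −3.26 to −0.25; adjusted p = 0.111), although both CM libraries lay above both DM+Met libraries. That Ifng passed in DM and not in DM+Met does not show that the media differ, and the direct comparison of the media is the value of 1.18 given above. Tgfb1 was at −1.50 (adjusted p = 0.125) and Csf2 at 0.41 (adjusted p = 0.717). Il3 was 11.5-fold lower in DM+Met than in CM with 3 reads set in place of none, a value that leaves out counting error in CM.

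Genes near the cytokine genes were read from a fixed set of neighbours. Ltb, which encodes the partner chain of lymphotoxin alpha on the cell surface and lies 3061 bases from Tnf, was read 1038 and 1108 times with CM, 2830 and 1712 times with DM, and 3468 and 4402 times with DM+Met. In CPM, Ltb was lowest in CM (118 and 142) and highest in DM+Met (290 and 370), but DM (289 and 151) came close to both. It rose in DM+Met against CM by 1.33 (adjusted p = 0.0102). The other comparisons gave 0.69 for DM against CM (adjusted p = 0.113) and 0.65 for DM+Met against DM (adjusted p = 0.483). Il22, which acts on epithelial cells, lies 230998 bases from Ifng, with 9 protein-coding genes between them. It was read 34 and 21 times with CM, 2 and 11 times with DM, and 3 and 0 times with DM+Met. It fell in DM+Met against CM by 1.92 (adjusted p = 0.0479) and differed by −1.46 (adjusted p = 0.107) in DM, and its reads could be divided with the nearby copy Iltifb. Il17f, a homologue next to Il17a, was read 3 and 0 times with CM, 0 and 32 times with DM and not at all with DM+Met, so it was not tested.

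Other cytokine genes that T cells can make moved in both directions. As the background for this list and those that follow, 16.9% of all rows differed in DM against CM. The share was 15.3% in DM+Met against CM. Of 25 such genes 21 were tested, and in DM against CM 5 rose and 2 fell, with a list median of 0.32. The growth factor gene Il9, at 0 and 8 reads with CM against 178 and 422 with DM, rose by 4.25 (adjusted p = 7.87e-04), and it had 1422 and 1118 reads in DM+Met. Il24, a cytokine of the IL-10 family, fell by 4.68 (adjusted p = 9.11e-04) from 612 and 415 to 18 and 12 reads. Tgfb3, which encodes another TGF-β ligand, fell by 4.32 (adjusted p = 0.00217) from 113 and 237 reads to 0 and 1. Tgfb3 passed the filter through the CM libraries alone. Against CM, DM+Met gave 9 calls, 6 higher and 3 lower. The call of Il9 was lost with limma-voom (adjusted p = 0.0704), and those of Il24 and Tgfb3 stood under all 14 alternatives. In DM+Met against DM none of the 164 tested genes in this list and the others passed in limma, 29 had an unadjusted p below 0.05, and limma-voom called 2, Il9 and Nfkbia.

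Of 20 receptor chains for the 10 cytokines, 19 were tested, and 4 rose and 1 fell in DM against CM, with a list median of 0.36. Tgfbr2, the chain that binds TGF-β, rose by 1.56 (adjusted p = 0.00254) from 219 and 251 reads to 878 and 929. Its signalling partner Tgfbr1 rose by 1.61 (adjusted p = 0.0263) and Csf2rb, the beta chain shared by the receptors for IL-3 and GM-CSF, by 1.97 (adjusted p = 0.0198). The Tgfbr1 call was lost without any 1 library other than CM library 2, and the Csf2rb call without any 1 of the 6 libraries, with adjusted p-values of up to 0.134 and 0.127. DM+Met against CM gave 5 higher and 1 lower.

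Genes that process or activate latent TGF-β numbered 10, of which 7 were tested and 2 rose in DM, with a list median of 0.43. Nrp1, a surface receptor that binds latent TGF-β, rose by 4.14 (adjusted p = 6.53e-05) from 29 and 20 reads to 583 and 880. Lrrc32, which encodes GARP, the protein that docks latent TGF-β on T cells, rose by 2.41 (adjusted p = 1.42e-04) from 300 and 264 reads to 2119 and 1798. Both stood under all 15 alternatives. The ligand gene Tgfb1 itself had 28 to 30 reads in CM and 9 to 12 in DM. Against CM, DM+Met gave 2 higher and 1 lower.

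Transcription factors that act on cytokine genes formed the longest of the lists around the cytokine genes and held the most calls. Of 32 factors 31 were tested, and 18 differed in DM against CM, 7 higher and 11 lower, with a list median of −0.51. The share called was 58.1%, against 16.9% of all rows. Tbx21, which encodes T-bet, the factor that directs Ifng in Th1 cells, fell by 3.27 (adjusted p = 0.00691) from 708 and 515 reads to 137 and 33. Its call was lost without CM library 1 (−3.13, adjusted p = 0.0923), CM library 2 (−3.42, adjusted p = 0.0692) or DM library 2 (−2.30, adjusted p = 0.0645). Nfil3, a factor induced in several T helper subsets, fell by 2.02 (adjusted p = 0.00750), a call lost without either CM library, DM library 2 or DM+Met library 2, with adjusted p-values of up to 0.0950. Egr1, an immediate-early factor downstream of the T cell receptor, rose by 2.34 (adjusted p = 7.39e-04). DM+Met against CM gave 4 higher and 11 lower.

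Proteins that bind or cleave cytokine mRNAs were read as a further list. Of 10 genes, 2 rose and 1 fell in DM, with a list median of 0.06. Zfp36l1, which promotes decay of AU-rich mRNAs, rose by 0.86 (adjusted p = 0.00467), Rc3h2, a Roquin protein that represses mRNAs in T cells, by 0.90 (adjusted p = 0.0409), and Ptbp1, a splicing and stability factor, fell by 0.88 (adjusted p = 0.0350). Rc3h2 lost its call in 12 of 15 alternatives and was at 0.59 without CM library 2, and Ptbp1 lost its call in 9 and was at −0.49 without DM library 2. The Zfp36l1 call was lost in 3, among them those without a CM library. DM+Met against CM gave 2 higher.

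Genes that the cytokines are known to induce were read as 4 lists. Among 17 genes induced by interferon gamma, 2 rose and 1 fell in DM (17.6%, near the 16.9% of all rows), with a list median of 0.19. The signalling inhibitor Socs1 rose by 1.37 (adjusted p = 0.00772), the GTPase gene Ifi47 rose by 1.28 (adjusted p = 0.00309), and Tap1, a peptide transporter for antigen presentation, fell by 1.09 (adjusted p = 0.00240). The Tap1 call stood under all 15 alternatives, that of Ifi47 was lost without either DM library, and that of Socs1 was lost in 6 and the change was 0.91 without DM library 1. Against CM, DM+Met gave 5 higher and 1 lower in that list. Among 12 genes induced by IL-2 through STAT5, 4 rose and 2 fell in DM, with a list median of −0.04, and the counts were the same in DM+Met. They included the inhibitor Socs2 (1.27, adjusted p = 8.69e-04), Myc (1.66, adjusted p = 0.0117) and the survival kinase gene Pim2 (−1.11, adjusted p = 0.00326). The Socs2 call stood under all 15 alternatives, that of Pim2 was lost in 1, and that of Myc was lost in 7, including each that left out 1 library.

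Among 8 genes induced by TGF-β, 3 rose and 1 fell in DM, with a list median of 0.64. Skil (1.59, adjusted p = 0.0365) and Ski (1.29, adjusted p = 0.00196), which encode repressors of TGF-β signalling, were among those that rose. The Ski call stood under all 15 alternatives. Skil changed by 0.79 without CM library 2 and by 2.40 without CM library 1 and lost its call in 9 of 15 alternatives. Against CM, DM+Met gave 1 higher and 1 lower. Among 9 genes induced by TNF through NF-κB, 1 rose and 1 fell in DM, with a list median of 0.35. These were Nfkb2, an NF-κB subunit (1.19, adjusted p = 0.00409), and Bcl3, a nuclear partner of NF-κB (−1.12, adjusted p = 0.00552). Both calls were lost without either DM library, and that of Bcl3 also without CM library 2. Against CM, DM+Met gave 3 higher in that list and none lower.

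**Figure D4:**
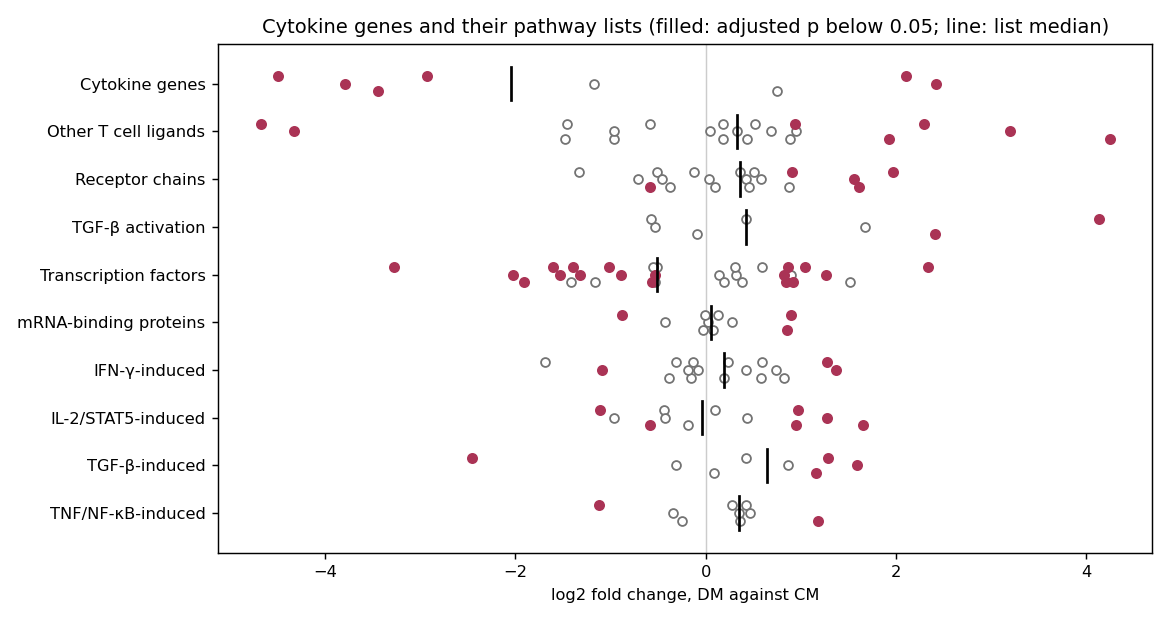
Log2 fold change in DM against CM (horizontal axis) of the 8 tested cytokine genes and of each tested gene in 9 lists around them, with filled points where the adjusted p is below 0.05 and a vertical line at each list median. The cytokine genes split into 2 that rose and 4 that fell, while the lists lie around medians from −0.51 to 0.64.

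Other cell types were read through 2 further lists. Of 7 B cell markers 6 were tested and none passed in any comparison with limma or limma-voom, although 1 had an unadjusted p below 0.05 in DM against CM and 3 in DM+Met against CM, with summed CPM of 88.8 to 103 in CM, 77.6 to 85.0 in DM and 61.6 to 75.2 in DM+Met, and Pax5 at 0 in all libraries. Of 6 basophil and mast cell markers 2 were tested and none passed with either tool or had an unadjusted p below 0.05, with sums of 3.16 to 14.7 CPM over all libraries and Mcpt8 and Fcer1a at 0 throughout. Of the 10 T cell markers, 2 rose and 2 fell in DM, named here as Cd5, an inhibitory surface receptor (1.42), the receptor chain Cd3g (0.72) and the kinase gene Zap70 (−0.63, adjusted p = 0.0485), whose calls were lost in 3, 9 and 11 of 15 alternatives.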

How the data were processed

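CD4 T cells were cultured in CM, DM or DM+Met, and RNA was sequenced with a 3′-end kit (QuantSeq, Lexogen). Each medium is 1 deposited sample with 2 numbered files. The labels leave these files unexplained. They were taken as 2 replicate libraries because the study names 2 independent samples in each medium, and p-values measure only the spread between them. Per the labels, Bowtie2, bedtools and mm10 were used by the authors, with versions not given in the sources used here. The authors deposited log2(CPM + 1) values after TMM scaling. Both the base 2 and the pseudocount of 1 were inferred from the numbers themselves, as were the reads, since CPM stepped in equal amounts (at least 99.776% whole within 0.1 at up to 300 reads). Coordinates and promoters came from RefSeq on GRCm38.p6.

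Rows reaching 0.951 CPM (10 reads at the median scaled depth) in at least 2 libraries, with at least 15 reads in all, were tested (12770 of 23282 rows). Il17a and Tgfb3 passed through the CM libraries alone and Klrb1c through the dialyzed media alone. The direction of a call against CM was thereby fixed for these genes. The 6 libraries entered a single fit without covariates in limma 3.58.1 (R 4.3.3), with a mean-variance trend in eBayes, two-sided, with Benjamini-Hochberg adjustment over all tested rows and a threshold of 0.05. All adjusted p-values are from this fit unless stated. Fold changes on the log2(CPM + 1) scale understate changes of low genes. Pooled ratios were taken from reads with exact intervals. Alternatives changed the scaling, pseudocount, filter, test, libraries in the fit, replicate block and each library in turn.

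The members and lists were chosen with earlier results of these data known. All members were named, with up to 3 called genes of the largest change per list, and the neighbours Il22, Il17f and Ltb. Other genes named, as Nfkbia, Adgre1, Tyrobp, Ncr1, Klrb1c, Klrk1, Klrd1, Cd8b1, Prf1, Pax5, Mcpt8 and Fcer1a, were chosen after their values were seen. A gene that the naming rule selects is not reported here.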

Additional observations from a re-analysis of the deposited data

How the results depend on the processing

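Counts of called cytokine genes changed with the filter, the test and single libraries. With at least 10 reads required in every library, only Il21, Tnf and Lta were tested, and all 3 were called both in DM against CM (3 in place of 6) and in DM+Met against CM (3 in place of 5). Leaving out each library in turn gave 2 to 5 calls in DM against CM, 2 (Il21 and Tnf) without DM library 1 and 3 without CM library 1, and 2 to 5 in DM+Met against CM, 2 (Tnf and Lta) without either DM+Met library and 3 without either CM library. Other settings gave 4 calls in DM against CM with limma-voom (Ifng and Il17a lost), 5 with a pseudocount of 0.1, with no filter or with only the media compared (Ifng lost), and, in DM+Met against CM, 4 with a pseudocount of 0.1 (Il10 lost). In DM+Met against DM there were 0 calls throughout except with limma-voom, which gave 1 (Lta, adjusted p = 0.0494). Directions that reversed belonged to uncalled genes with few reads. Over the left-out libraries, Csf2 in DM+Met against DM ranged from −0.996 to 0.32 (0.22 when DM+Met library 2 was left out, 0.32 when DM library 1 was), Tgfb1 in the same comparison from −0.88 to 0.23, and Csf2 in DM+Met against CM from −0.15 to 0.97. Ifng in DM+Met against CM was called with a pseudocount of 5 (−1.16, adjusted p = 0.0416). Libraries with the same number did not deviate together (r = −0.025, 0.005 and −0.030 across genes), and the number as a replicate block left 6, 0 and 5 calls. Scaling by library totals put the median of all rows at 0.34 in DM+Met against DM, from 0.009. In DM+Met against CM that median was 0.41, from 0.061. No call of a cytokine gene changed. A limma fit without an intensity trend was added after seeing the data. Depth limits genes with fewer than 10 reads, as Ifng, Il2, Il3, Il10, Il17a, Csf2 and Tgfb1 had in at least 1 library of the dialyzed media. The cause of these changes was not tested beyond the smaller number of genes or libraries in the fit.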
